A study of Mus musculus with 6 samples.

Results

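The genes described here encode the ephrin, semaphorin, Slit and netrin families of guidance cues and their Eph, plexin, Robo, Unc5 and Dcc receptors. They were picked by a rule on gene symbols from the probe sets that the platform's annotation assigns to a single gene. The rule set no threshold on measured values, but the families were chosen with earlier results of these data known. The rule found 63 genes among the 19505 genes with a symbol, each measured by 1 probe set: 13 Eph receptors, 8 ephrins, 7 secreted semaphorins of class 3, 12 membrane-bound semaphorins of classes 4 to 7, 9 plexins, 3 Slit ligands with 3 Robo receptors, and 3 netrins with 4 Unc5 receptors and Dcc. Adrenal glands were taken whole from 2-month-old female mice, and RNA from each animal was hybridised to its own Affymetrix whole-transcript array. The 3 control mice had the genotype Mst1flox/flox;Mst2flox/flox and no Cre. The 3 mutant mice had the genotype Mst1flox/flox;Mst2flox/flox;Nr5a1-cre, so all 6 animals carried the floxed alleles and the groups differed in the Cre transgene. Nr5a1-driven Cre acts in steroid-producing cells, and a whole gland also holds vessels, capsule stroma, nerve fibres and chromaffin cells. Any effect of the transgene itself cannot be told apart from loss of the kinases, since no control animal carried it.

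Guidance cues were first studied in growing axons, and the same ligand and receptor pairs direct vessel sprouting, tissue boundaries and cell sorting in many organs. Ephrins sit on the cell surface and signal to Eph receptor tyrosine kinases on the neighbouring cell, and the ephrin also signals back into its own cell. Semaphorins act through plexins, the secreted ones often with neuropilins as coreceptors. Slits are large secreted proteins that bind Robo receptors, and netrins are laminin-related proteins that bind Dcc, neogenin and the Unc5 receptors. The adrenal gland is densely vascularised and innervated, and endothelial and neural cells are known users of these families. MST1 and MST2 are Hippo pathway kinases, encoded by Stk4 and Stk3, that restrain the coactivators YAP and TAZ of TEAD transcription factors.

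Values are log2 signals, and a difference of 1 is a 2-fold difference. Median signals of the 6 arrays lay between 6.76 and 6.83. Signals of the 23 background probe sets ranged from 2.53 to 7.32, and a gene inside that range is called dim here, since its signal was not told apart from background. Both group means were dim for 29 of the 63 guidance genes. Signals depend on each gene's probes, so the values below compare a gene between animals, and no level is set against that of another gene except to choose, by mean signal, some of the genes described. The targeted gene Stk4 measured 8.32, 8.66 and 8.94 among controls and 8.14, 8.36 and 8.46 among mutants, with overlapping groups (limma adjusted p = 0.623). No probe set carried the symbol Stk3 in the annotation used, so Stk3 could not be examined. The position of the Stk4 probes against the deleted exons was not given in the sources used here. Mutant and control glands, 3 animals a group, were compared by limma, and p-values were adjusted by Benjamini-Hochberg over all 22206 probe sets. Replicates are separate animals. In whole glands, fewer cells of a type and less RNA per cell cannot be told apart.

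No guidance gene passed an adjusted p of 0.05 in the limma fit: the count was 0 of 63, against 0.0721% of all probe sets. The signals leaned towards higher values in mutant glands. At an unadjusted limma p under 0.05 there were 16 of the 63 genes (25.4%, against 10.4% of all probe sets), 13 of them higher in the mutants and 3 lower. The higher ones made up 20.6% of the guidance genes, where the background was 5.42%, and the lower ones made up 4.76%, where it was 4.96%. In 18 genes (28.6%, against 16.4% of all probe sets) the 3 mutants lay entirely on one side of the 3 controls. These were 15 higher genes, or 23.8% against a background of 8%, and 3 lower genes, or 4.76% against 8.36%. The share of lower genes was near or under the background, so the lean was seen in the upward direction. The families were chosen with earlier results of these data known, and the part of that choice in these shares was not tested.

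**Figure D1:**
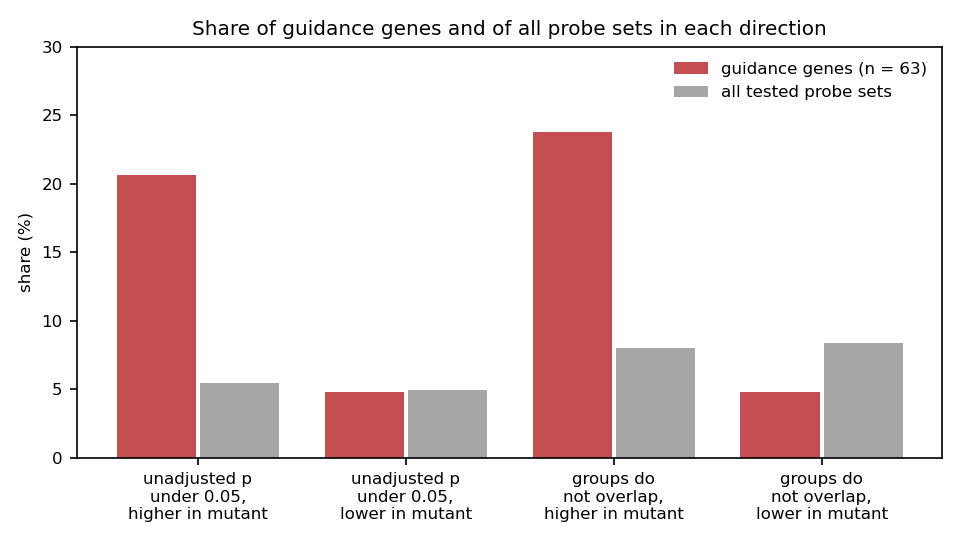
Share in percent of the 63 guidance genes (red) and of all 22206 tested probe sets (grey) with an unadjusted limma p under 0.05, or with groups that do not overlap, split by direction. The red bars reach 20.6% and 23.8% for higher signals in mutant glands against 5.42% and 8% in grey, and stand at 4.76% for lower signals.

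The lean was small for the median gene. Over the guidance genes the median log2 change, mutant minus control, was 0.083, and 37 of 63 (58.7%) were above 0. Over all 19505 genes the median was -0.012, and 47.9% were above 0. The guidance median was 0.048 without mutant 2, 0.055 with the arrays shifted to a common median and 0.13 with only brighter probe sets. Brighter probe sets are those with a mean above the median of all probe-set means. That cut lay under the top of the background range, so some dim genes were kept. Changes ran from -0.59 (Epha7) to 1.06 (Slit1). Ligands had a median of 0.13 with 22 of 33 above 0, and receptors 0.017 with 15 of 30 above 0, a difference that was not tested. Relative to the mean of the controls, the median deviation over the 63 genes was 0.15, 0.14 and 0.13 in the mutants, and -0.021, -0.048 and 0.042 in the controls. Each mutant animal thus lay above each control on this measure.

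**Figure D2:**
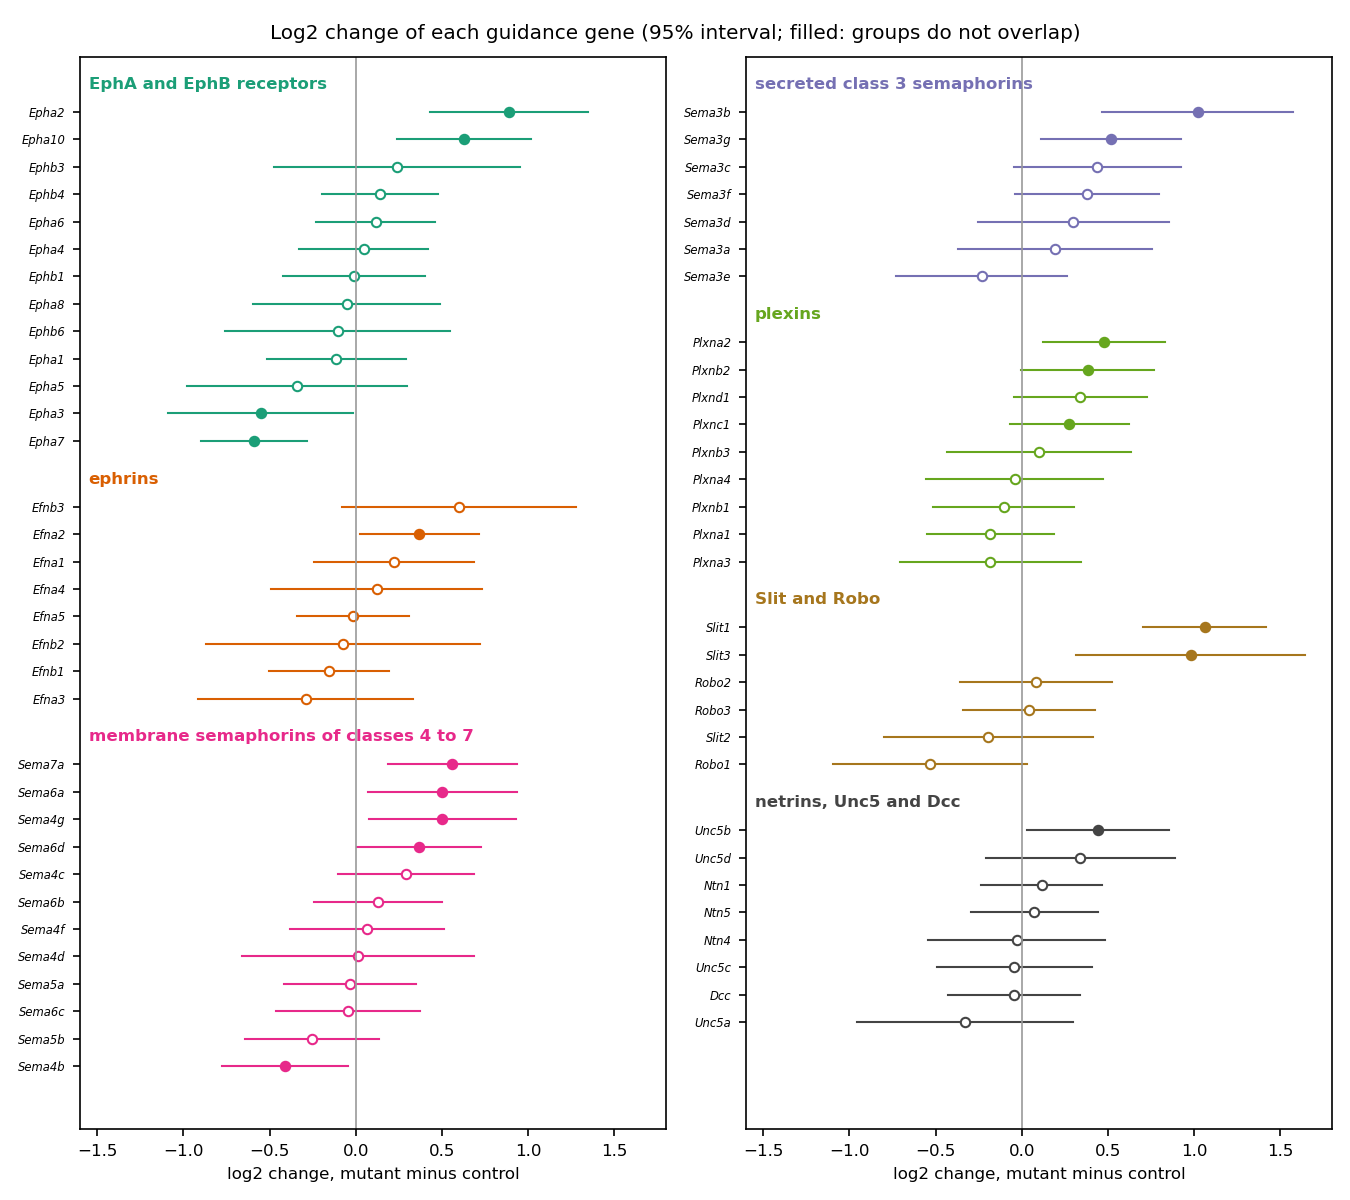
Log2 change, mutant minus control, of each of the 63 guidance genes with its 95% interval from the limma fit, grouped by role and coloured by group. Filled points mark the 18 genes whose animals do not overlap between groups, and Slit1, Sema3b, Slit3 and Epha2 lie farthest to the right.

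The Slit ligands held the guidance gene closest to the threshold. Slit1, a secreted repellent of axons, measured 6.85, 7.17 and 7.003 among controls and 7.92, 8.17 and 8.11 among mutants. All 3 controls were dim and all 3 mutants were above the background range, so the fold may be too small. Its log2 change was 1.06 (SE 0.16, 95% interval 0.70 to 1.42), a measured 2.09-fold difference, with a limma adjusted p = 0.0576. Slit1 passed the threshold in 3 of the 13 alternative fits. These were array weights (limma adjusted p = 0.0459), a trended and robust variance (0.028) and only brighter probe sets (0.0247). Over all alternative fits its adjusted p ran from 0.0247 to 0.264. Its change ran from 0.98 to 1.14.

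Slit3, a family member also made by stromal and smooth muscle cells, measured 9.06, 8.19 and 9.13 among controls and 10.20, 9.61 and 9.51 among mutants. The groups did not overlap, but control 2 lay well under the other controls. The log2 change was 0.98 (SE 0.29, limma adjusted p = 0.308), and 0.68 without control 2. Slit2 was dim in all 6 animals, with a change of -0.19 (SE 0.26). The receptor Robo1 measured 12.64, 12.56 and 13.06 among controls and 12.17, 11.80 and 12.68 among mutants. Here the direction was opposite to that of Slit1 and Slit3, and mutant 3 overlapped the controls. The Robo1 change was -0.53 (SE 0.24, limma adjusted p = 0.505), from -0.76 without mutant 3 to -0.33 without mutant 2. Robo2, its direct neighbour among protein-coding genes on chromosome 16 of assembly GRCm38.p6, and Robo3 were dim and had changes of 0.083 and 0.045.

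Among the secreted class 3 semaphorins, 6 of 7 had changes above 0 and 0 passed the adjusted test. The class median was 0.38, and 2 of the 7 (28.6%, against 10.4% of all probe sets) had an unadjusted p under 0.05. Both group means were dim in 3 of the 7, which limits what the class median shows. Sema3b, a repellent that competes with vascular endothelial growth factor for neuropilins, measured 8.25, 7.88 and 7.67 among controls and 9.21, 9.17 and 8.48 among mutants. Mutants 1 and 2 were close together and mutant 3 lay nearer to the controls without overlapping them. The log2 change was 1.02 (SE 0.24, 95% interval 0.47 to 1.58), a 2.03-fold difference with a limma adjusted p = 0.201. Sema3g, expressed mainly by arterial endothelium, measured 6.22, 6.32 and 6.01 among controls and 6.72, 6.44 and 6.94 among mutants. It was dim in every animal, and its change of 0.52 (SE 0.18, limma adjusted p = 0.37) separated the groups.

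Sema3f, a ligand of neuropilin-2, lies 3 protein-coding genes away from Sema3b on chromosome 9. It measured 9.59, 9.61 and 10.06 among controls and 10.03, 10.32 and 10.03 among mutants, with control 3 inside the mutant range. Its change of 0.38 (SE 0.18, limma adjusted p = 0.529) had the same sign as that of Sema3b and was smaller, a difference between the genes that was not tested. The other 4 class 3 genes had changes from -0.23 (Sema3e) to 0.44 (Sema3c). Sema3d and Sema3a, direct neighbours on chromosome 5, had changes of 0.30 and 0.19 with overlapping groups. Dim in all animals were Sema3a and Sema3e, and Sema3c and Sema3d had dim control means.

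Membrane semaphorins had differences in both directions. Of the 12, 8 had changes above 0, the median was 0.097, and 5 (41.7%, against 10.4% of all probe sets) had an unadjusted p under 0.05, 4 higher and 1 lower. Sema7a, which is anchored by a lipid and binds integrins as well as plexin C1, measured 8.39, 8.45 and 8.71 among controls and 8.89, 9.18 and 9.16 among mutants. All 3 mutants were above all 3 controls. The change of 0.56 (SE 0.16) had a limma adjusted p of 0.302. Sema6a, known from endothelial cells and from migrating neurons, measured 8.75, 8.92 and 9.31 among controls and 9.70, 9.39 and 9.40 among mutants. Its groups were separated by a small gap between control 3 and mutant 2, with a change of 0.50 (SE 0.19, limma adjusted p = 0.41). Sema4g was dim in all animals and measured 6.23, 5.97 and 6.35 against 6.44, 6.96 and 6.65, a change of 0.50 (SE 0.19, limma adjusted p = 0.405).

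Sema4b was the one semaphorin whose mutants all lay under the controls. It measured 12.49, 12.25 and 12.59 among controls and 12.09, 12.13 and 11.87 among mutants, with a change of -0.41 (SE 0.16, limma adjusted p = 0.431). Sema5b, a transmembrane semaphorin with thrombospondin repeats, measured 11.47, 11.61 and 11.19 against 11.21, 11.31 and 11.00. Its groups overlapped, with a change of -0.25 (SE 0.17, limma adjusted p = 0.674), or -0.16 without control 2. The remaining 7 membrane semaphorins had changes from -0.044 (Sema6c) to 0.37 (Sema6d). Sema6d, a ligand of plexin A1, was the only one of these with separated groups (SE 0.16, limma adjusted p = 0.474). Sema6c, Sema4f and Sema4d were dim in all animals.

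Plexins, the signalling receptors for semaphorins, had a median change of 0.098, and 5 of 9 were above 0. Plxna2 alone had an unadjusted p under 0.05, and 1 of 9 (11.1%) is near the background of 10.4%. Groups did not overlap in 3 (33.3%, against 16.4% of all probe sets), all of them higher. A receptor for class 3 and class 6 semaphorins, Plxna2 measured 7.80, 7.79 and 7.91 among controls and 8.50, 8.32 and 8.11 among mutants. The controls were close together and the mutants spread upwards from them. Its change was 0.48 (SE 0.16, limma adjusted p = 0.35). Plxnb2, a receptor for class 4 semaphorins, measured 11.62, 11.57 and 11.74 among controls and 11.89, 12.31 and 11.87 among mutants. Mutant 2 was the highest, and the change was 0.38 (SE 0.17, limma adjusted p = 0.486), or 0.24 without mutant 2.

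Plxnd1, the endothelial receptor for Sema3e, measured 11.53, 11.30 and 11.13 among controls and 11.78, 11.72 and 11.47 among mutants. Control 1 overlapped mutant 3, with a change of 0.34 (SE 0.17, limma adjusted p = 0.539). Plxnc1, the receptor for Sema7a, had a dim control mean and a change of 0.28 (SE 0.15, limma adjusted p = 0.584) with separated groups. The other plexins lay between -0.18 (Plxna3 and Plxna1) and 0.098 (Plxnb3), with overlapping groups in each. Among them Plxna3 and Plxnb3 were dim in all animals, and Plxna4 was dim in both group means.

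**Figure D3:**
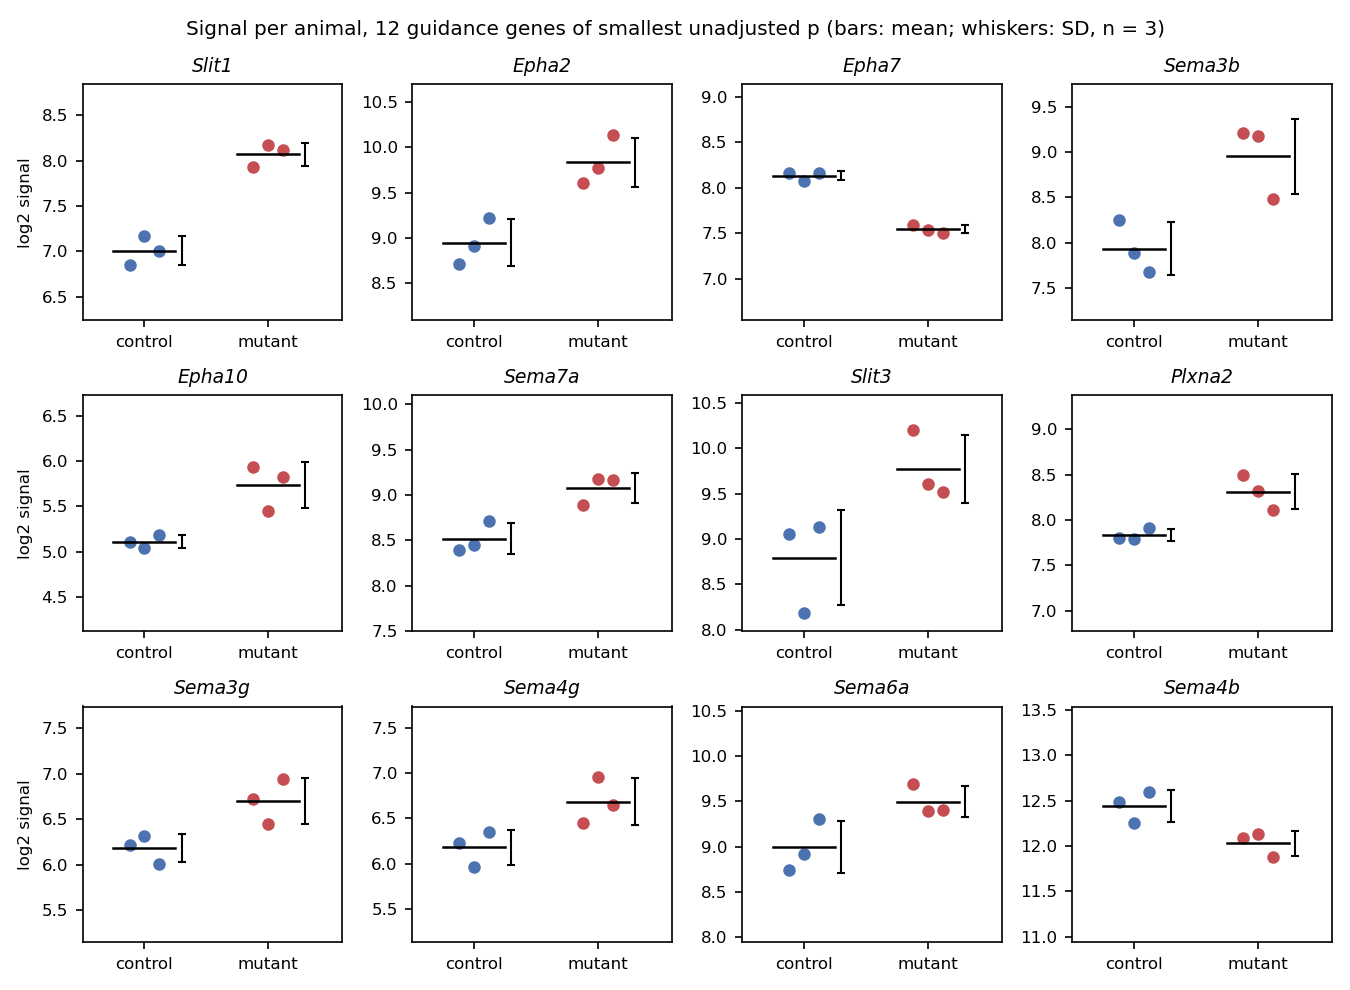
Log2 signal per animal for the 12 guidance genes of smallest unadjusted p, with 3 control (blue) and 3 mutant (red) animals, horizontal bars at the group means and whiskers of 1 SD. Every panel spans the same number of log2 units; Epha7 and Sema4b are lower in the mutants and the other 10 are higher.

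The Eph receptors had no common direction. Of 13 receptors, 6 had changes above 0, the median was -0.0099, and the 4 with an unadjusted p under 0.05 (30.8%, against 10.4% of all probe sets) were split evenly, with Epha2 and Epha10 higher and Epha7 and Epha3 lower. All 4 belong to the A class. Epha2, a receptor of epithelial and endothelial cells, measured 8.71, 8.91 and 9.22 among controls and 9.61, 9.77 and 10.13 among mutants. The highest control was under the lowest mutant, and the log2 change was 0.89 (SE 0.20, 95% interval 0.43 to 1.35), a 1.85-fold difference with a limma adjusted p = 0.183. Epha7, an ephrin-A5 receptor of neural tissue, measured 8.16, 8.07 and 8.17 among controls and 7.59, 7.53 and 7.50 among mutants. Animals agreed closely within each group, with SDs of 0.05 and 0.04. Its change was -0.59 (SE 0.13, 95% interval -0.90 to -0.28, limma adjusted p = 0.186).

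These receptors had the largest opposed changes of the family. Upstream sequences were taken for the guidance genes of smallest unadjusted p. Slit1 and Sema3b were also among these but had no promoter window, so only Epha2 and Epha7 are shown. The TEAD core is marked because the study removed kinases that act on TEAD cofactors. The letters are the 250 bases before the transcription start, 5′ to 3′, from RefSeq on GRCm38.p6, a build that the deposited files do not name. Epha2 lies at chr4:141300971-141301220 and Epha7 at chr4:28812881-28813130, both on the plus strand. Capitals mark the TEAD core GGAATG or its reverse complement CATTCC, searched on both strands.
Epha2: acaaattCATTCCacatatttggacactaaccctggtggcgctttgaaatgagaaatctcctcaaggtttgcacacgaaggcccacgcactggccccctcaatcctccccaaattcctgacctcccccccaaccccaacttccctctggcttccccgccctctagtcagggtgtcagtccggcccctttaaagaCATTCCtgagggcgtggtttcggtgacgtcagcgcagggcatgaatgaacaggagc
Epha7: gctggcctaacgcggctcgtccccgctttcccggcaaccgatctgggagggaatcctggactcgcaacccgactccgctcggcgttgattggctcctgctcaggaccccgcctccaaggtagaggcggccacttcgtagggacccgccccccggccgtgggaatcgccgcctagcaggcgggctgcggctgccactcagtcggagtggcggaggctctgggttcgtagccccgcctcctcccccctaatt
The Epha2 stretch holds the core 2 times, at bases 8 to 13 and 195 to 200 counted from its 5′ end. The Epha7 stretch does not hold these letters. A further Epha7 window, chr4:28812895-28813144, is not printed and does not hold them either. Promoter windows of 300 bases, from 250 before to 50 after a start, were found for 53 of the 63 genes, with 66 windows in all. The core was in 7 of the 66 (10.6%) and in 14.7% of the 32851 windows of all genes. The 7 genes with it were Efnb2, Epha1, Epha2, Epha3, Plxnb1, Plxnd1 and Robo2, of which 3 had changes above 0, with a median of -0.077 against 0.068 in the 46 genes without it. At least 2 matches stood in 1.36% of all windows and, among guidance genes, in that of Epha2. The NR5A1 half-site AAGGTCA, or its complement TGACCTT, was in 3 windows (4.55%, against 4.72% of all), those of Ntn5, Sema4b and Sema5a. Neither motif was more frequent in guidance promoters than in all promoters, and a match is a run of letters, not a shown binding site.

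The remaining Eph receptors included Epha10, which lacks kinase activity. It was dim in all animals, measuring 5.11, 5.04 and 5.18 among controls and 5.94, 5.45 and 5.82 among mutants, a change of 0.63 (SE 0.17, limma adjusted p = 0.263). Epha3 was dim too and had a change of -0.55 (SE 0.23, limma adjusted p = 0.472). Ephb4, the venous endothelial partner of ephrin-B2, measured 11.61, 11.45 and 11.73 against 11.77, 11.64 and 11.80. The groups overlapped, and the interval of its change, -0.20 to 0.48 around 0.14, holds 0 (limma adjusted p = 0.8). Without control 2 the change was 0.066. The other 8 Eph receptors had changes from -0.34 (Epha5) to 0.24 (Ephb3), with overlapping groups in each. Of these 8, only Epha1 and Ephb1 lay above the background range, and the rest were dim in all animals.

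Ephrin values lay on both sides of the controls. Of 8, 4 had changes above 0, the median was 0.053, and Efna2 alone had an unadjusted p under 0.05 (12.5%, near the background of 10.4%). Efna2, a lipid-anchored ligand of EphA receptors, was dim, with 6.13, 6.48 and 6.26 among controls and 6.70, 6.67 and 6.61 among mutants. Its change was 0.37 (SE 0.15, limma adjusted p = 0.452). Efnb1, a transmembrane ligand of EphB receptors, measured 13.06, 12.98 and 12.91 among controls and 12.74, 12.72 and 13.02 among mutants. Mutant 3 lay among the controls and the change was -0.16 (SE 0.15, 95% interval -0.50 to 0.19), or -0.25 without mutant 3 and -0.10 without mutant 2.

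Efnb2, the arterial ligand of EphB4, stood out by its spread among mutants. It measured 11.10, 10.93 and 11.09 among controls and 10.16, 10.97 and 11.75 among mutants, so the mutants lay below, within and above the control range. The SD was 0.79 in mutants and 0.10 in controls. Its change of -0.077 (SE 0.35, limma adjusted p = 0.964) was 0.32 without mutant 1 and -0.47 without mutant 3, so the sign rested on single animals. Efna1, Efna3 and Efna4 are consecutive protein-coding genes on chromosome 3 and had changes of 0.22, -0.29 and 0.12, all with overlapping groups. Efna4 was dim in all animals. Efna1 measured 7.60, 8.01 and 7.52 among controls and 7.71, 8.24 and 7.84 among mutants, and its change ran from 0.066 without mutant 2 to 0.37 without control 2. Efnb3 was dim and measured 5.61, 5.64 and 4.66 among controls and 5.84, 6.28 and 5.58 among mutants. Control 3 lay well under the other animals, and controls 1 and 2 were above mutant 3. The change of 0.60 (SE 0.30, limma adjusted p = 0.538) was 0.28 without control 3. Efna5, a ligand of many EphA receptors, had a change of -0.016 with a 95% interval of -0.34 to 0.31.

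Netrins and their receptors had a median change of 0.022, with 4 of 8 above 0. Unc5b, a netrin receptor of sprouting endothelium, was the one gene of this group with an unadjusted p under 0.05 (12.5%, near the background of 10.4%). It measured 8.29, 8.20 and 7.76 among controls and 8.52, 8.64 and 8.42 among mutants, with no overlap and a change of 0.44 (SE 0.18, limma adjusted p = 0.448), or 0.28 without control 3. Ntn1, the prototype netrin, measured 7.25, 7.30 and 7.55 against 7.60, 7.42 and 7.42. The groups overlapped near the top of the background range, with a change of 0.11 (SE 0.15, 95% interval -0.24 to 0.47) that ran from 0.053 without mutant 1 to 0.21 without control 3. Unc5d was dim and measured 4.88, 5.07 and 5.73 among controls and 5.54, 5.80 and 5.36 among mutants. Its change was 0.34 (SE 0.24, limma adjusted p = 0.689), or 0.17 without control 1 and 0.59 without control 3. Unc5a was dim in both group means, with 7.002, 7.44 and 6.27 among controls and 6.58, 6.61 and 6.52 among mutants. The mutants lay inside the wide control range. Its change was -0.33 (SE 0.27, limma adjusted p = 0.739), or -0.062 without control 2 and -0.65 without control 3. Dcc, Ntn5 and Unc5c were dim in all animals and had changes of -0.045, 0.073 and -0.044, and Ntn4 had -0.030.

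Partners of these families outside the symbol rule were taken from a fixed list of 68 genes, 60 of them measured. None of the 60 passed the limma test at an adjusted p of 0.05, and 11 (18.3%, against 10.4% of all probe sets) had an unadjusted p under 0.05. Of these 10 were higher (16.7%, against 5.42%) and 1 was lower. Coreceptors and further ligands or receptors had a median change of 0.35 over 13 genes, 10 above 0, and 6 (46.2%, against 10.4%) had an unadjusted p under 0.05, 5 higher and 1 lower. Neo1 encodes neogenin, the Dcc relative that binds netrins and repulsive guidance molecules. It measured 13.17, 13.13 and 13.09 among controls and 14.16, 13.89 and 14.08 among mutants. The mutants were higher by 0.91 (SE 0.14), with no overlap and a limma adjusted p = 0.0673. Neo1 passed the threshold with a trended and robust variance (limma adjusted p = 0.00553) and with only brighter probe sets (0.0262). Its adjusted p over all alternative fits reached 0.264.

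Flrt2, a transmembrane ligand of Unc5 receptors, had 10.70, 10.47 and 11.13 among controls and 11.76, 11.73 and 11.16 among mutants. Mutant 3 was just above control 3, and the change was 0.78 (SE 0.23, limma adjusted p = 0.308). The semaphorin coreceptor Nrp2 had 8.92, 8.91 and 8.68 against 9.63, 9.53 and 9.01, a change of 0.56 (SE 0.20, limma adjusted p = 0.38). Intracellular partners had a median of 0.054 over 47 genes, and 5 had an unadjusted p under 0.05, or 10.6% against 10.4% of all probe sets. With both directions together that is the background share. All 5 were higher, where the background of higher probe sets was 5.42%, and 0 were lower, where it was 4.96%. The 3 of smallest p were Dab1, a reelin pathway adaptor that was dim (0.72, SE 0.17), the SRC-family kinase Fyn (0.43, SE 0.14) and Dpysl3, a collapsin response mediator (0.96, SE 0.33, and 0.61 without control 3).

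Markers of other gland cells are given beside these values, with 0 of the listed markers past an adjusted limma p of 0.05. In alternative fits Cdh5 passed with a trended and robust variance (limma adjusted p = 0.0448) and Cd163 with only brighter probe sets (0.0319). Cd163 was dim in both group means (6.38 in controls and 7.29 in mutants). Where a list's share at an unadjusted p under 0.05 is given, the background is 10.4% of all probe sets. That share was 6 of 11 endothelial markers (54.5%), 3 of 9 smooth muscle (33.3%), 3 of 9 fibroblast (33.3%) and 2 of 6 macrophage markers (33.3%), all of them higher. It was 3 of 8 neuronal markers (37.5%), 1 higher and 2 lower, and 0 of 6 glial and 0 of 7 fat markers. It was 1 of 9 chromaffin and 1 of 9 steroid-producing cell markers, lower in both cases and near the background at 11.1%. Of 11 endothelial markers 9 had changes above 0, and the list mean was 11.86 to 12.12 in controls and 12.36 to 12.40 in mutants, without overlap. Its summed log2 signal was 130.4 to 133.3 and 135.9 to 136.4, and Cdh5 (0.60, SE 0.15), Ptprb (0.71, SE 0.20) and Kdr (0.58, SE 0.17) had its smallest p. Smooth muscle and pericyte markers were above 0 in 7 of 9, with list means of 8.28 to 8.52 and 8.68 to 9.14 and sums of 74.5 to 76.6 and 78.2 to 82.3. Of these 9, 4 were dim in both group means, among them Cnn1 (-0.29) and Myh11 (-0.069), the 2 under 0. Macrophage markers were above 0 in 6 of 6, with list means of 9.26 to 9.37 and 9.38 to 9.88 and sums of 55.5 to 56.2 and 56.3 to 59.3. Of these 6, Adgre1 and Cd163 were dim in both group means. Fibroblast markers were above 0 in 7 of 9, with overlapping list means of 9.70 to 10.18 and 9.94 to 10.85 and sums of 87.3 to 91.6 and 89.4 to 97.7. The endothelial, smooth muscle and macrophage lists thus lay higher in every mutant. Of guidance genes described as endothelial, arterial, venous, stromal or smooth muscle, Unc5b, Sema6a, Slit3, Epha2 (0.89) and Sema3g were higher without overlap. Among them Sema3g was dim in every animal. Plxnd1 (0.34) and Ephb4 (0.14) were above 0 and Efnb2 (-0.077) was under 0, with overlapping groups in each. The part of these cell types in the values of the guidance genes was not tested.

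All chromaffin markers and most glial and neuronal markers had changes under 0. Chromaffin markers were under 0 in 9 of 9, with list means of 12.89 to 13.89 in controls and 12.91 to 13.02 in mutants (sums 115.97 to 125.0 and 116.2 to 117.2), control 2 being the highest. All 6 Schwann and glial markers, Sox10 and Foxd3 among them, were dim in both groups, 5 of 6 being under 0, with list means of 4.82 to 5.10 and 4.67 to 4.92 (sums 28.9 to 30.6 and 28.0 to 29.5). Of 8 neuronal markers 6 were under 0 and 5 were dim, with list means of 6.72 to 7.21 and 6.76 to 6.96 (sums 53.8 to 57.7 and 54.1 to 55.7). The neuronal marker of smallest p was Prph, which encodes peripherin and was dim in all animals. It measured 4.96, 5.54 and 5.40 among controls and 5.95, 6.35 and 6.07 among mutants, higher in 3 of 3 mutants by 0.82 (SE 0.20, limma adjusted p = 0.204). Elavl4 (-0.78, SE 0.28) and Stmn2 (-0.36, SE 0.15) followed it with the opposite sign. Fat markers were above 0 in 7 of 7, with list means of 7.58 to 10.60 and 8.81 to 12.06 (sums 53.0 to 74.2 and 61.6 to 84.4), mutant 1 being the highest. Markers of steroid-producing cells were bright in every animal and were under 0 in 7 of 9, with list means of 17.55 to 17.58 and 17.37 to 17.53 (sums 157.96 to 158.2 and 156.4 to 157.8). These list means did not overlap, so the steroid-producing list lay lower in every mutant.

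**Figure D4:**
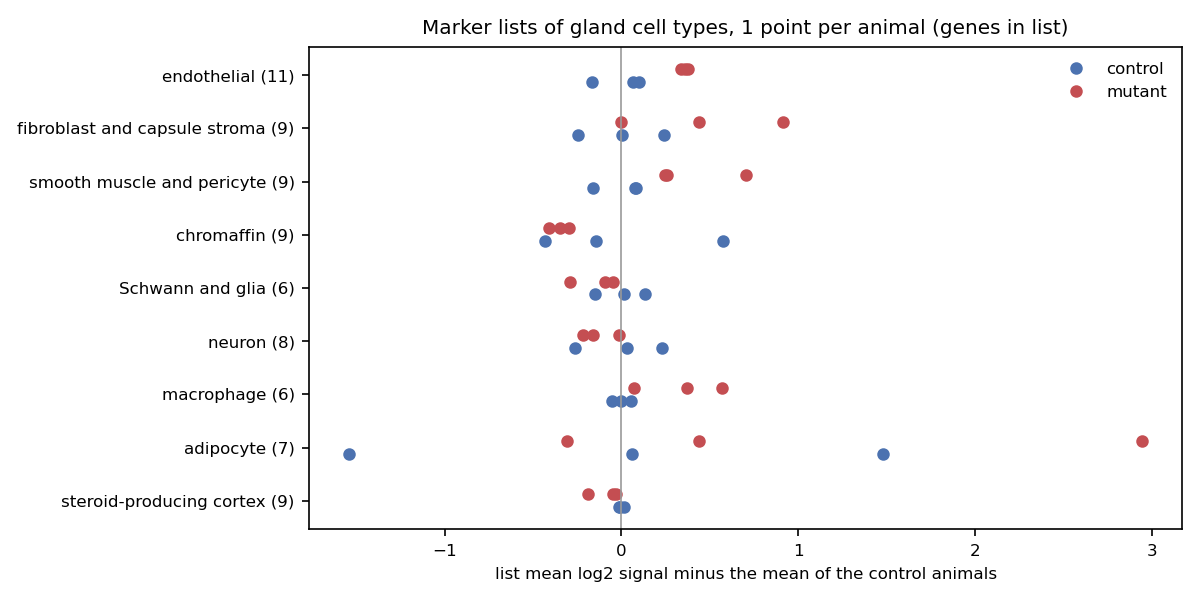
Mean log2 signal of each marker list per animal, as the difference from the mean of the control animals, with controls in blue, mutants in red and the number of measured genes in brackets. The endothelial, smooth muscle and macrophage lists lie higher in all 3 mutants than in any control. The steroid-producing list lies lower in all 3 mutants than in any control, and the adipocyte list spreads most widely.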

How the data were processed

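The authors deposited a log2 signal for every probe set and animal; that the scale is log2 was judged from the values. Transcriptome Analysis Console 4.0 stands in the submitters' processing notes, while the background correction, summary and between-array normalization were not given in the sources used here. Depth does not apply to arrays, and the number of animals limits the precision.

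Control probe sets (6640) were left out and the values were used without further normalization. The mutant minus control difference was estimated from the 6 arrays without covariates (limma 3.58.1, functions lmFit and eBayes, R 4.3.3), two-sided, with Benjamini-Hochberg adjustment for 22206 probe sets. An exact permutation test of 3 against 3 animals cannot go below p = 0.1, so none is given per gene. Described animal by animal were, in each of 7 role groups, the 3 genes of smallest unadjusted p and the 2 of highest mean signal, 27 genes in all. In each list the 3 genes of smallest p were eligible to be named, and those named are given mostly by their change alone. Genes outside that rule (such as Epha3, Sema6d, Plxnc1 and Efna5) were named after their values were seen. The members and lists were chosen with earlier results of these data known. The fit was tested on simulated data. Alternatives were quantile normalization, equal array medians, only brighter probe sets (mean above the median of all probe-set means) and a mean over a gene's probe sets. Others were a trended and robust variance, array weights, a block for the replicate number, leaving out each animal, and an adjusted p of 0.1.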

Additional observations from a re-analysis of the deposited data

How the results depend on the processing

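The count of guidance genes past an adjusted p of 0.05 was 0 in the fit reported. It was 1 (Slit1) with array weights, with a trended and robust variance, with only brighter probe sets and at an adjusted p of 0.1. It was 0 under every other alternative, leaving out single animals included. Of the other pathway genes, 1 (Neo1) passed with a trended and robust variance, with only brighter probe sets and at an adjusted p of 0.1. The last was chosen after seeing the data, and 0 passed under the other alternatives. The number at an unadjusted p under 0.05 stayed between 12 and 17. The number above 0 lay between 35 and 41, or 20 of the 36 genes left with only brighter probe sets. The median change was 0.055 with a shift to a common median, which moved the median of all probe sets from -0.011 to -0.039. It was 0.13 with only brighter probe sets and ran from 0.048 to 0.12 when single animals were left out. Over 60 named genes and 13 alternatives, 755 of 767 changes kept their sign and their side of the threshold, 7 newly passed it and 5 turned: Efnb2 with array weights (0.0031) and without mutant 1 (0.32), Foxd3 without control 2 (0.015) and without mutant 1 (0.036), and Lep without mutant 1 (-0.020). With single animals left out these 3 ran from -0.47 to 0.32, from -0.25 to 0.036 and from -0.020 to 1.70. The cause was not tested. The changes could not move with a trended and robust variance, with the replicate block or with only brighter probe sets. For guidance genes they could not move with a mean over probe sets either. In those fits only the side of the threshold could differ. With the replicate number as a block, 14 guidance genes had an unadjusted p under 0.05 and 0 passed, against 16 and 0. Same-numbered animals did not deviate together (correlations -0.09, 0.08 and -0.07). With 3 animals a group, whether they share more than a number cannot be told from these correlations. Signals within the background range, those of 29 guidance genes, limit what can be seen for them.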
